A study of Mus musculus with 2 samples.

Results

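Molecular chaperones of the heat shock families were described across 2 arrays of cells labelled GT1-7. The genes were taken by name: every non-control probe whose gene name in the scanner files was a numbered Hsp, Dnaj, Bag or Hsf symbol. These symbols stand for HSP70, HSP110, HSP90, HSP60, HSP10 and small heat shock proteins. They also stand for J-domain proteins of the DNAJA, DNAJB or DNAJC classes, BAG proteins and heat shock factors. Genes with other kinds of name, such as Trap1, Hyou1 and Cryab, were not taken, whatever their family, and are among the other folding genes below. The rule used names only and found 80 genes on 120 probes, of 55681 probes on each array; no gene was named Hspa1b. GT1-7 is a line of immortalised mouse hypothalamic neurons. Cells of the vehicle group received DMSO and those of the GnRH group 50 nM gonadotropin-releasing hormone (GnRH), each for 30 min and each on 1 array. The free-text descriptions of both samples name bradykinin and A549 cells instead, and the groups here follow the treatment labels. A single array stands for each group, so replicates are lacking and nothing was tested; the number of arrays limits the precision, and every value describes these 2 arrays.

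HSP70 proteins bind and release unfolded segments of other proteins in a cycle driven by ATP. J-domain proteins deliver clients and start ATP hydrolysis, and BAG and HSP110 proteins act as nucleotide exchange factors that let the client go. HSP90 proteins work later on partly folded clients such as kinases and steroid receptors, the mitochondrial HSP60 and HSP10 form a folding chamber, and small heat shock proteins hold unfolding proteins without ATP. Heat shock factor 1 (Hsf1) raises the transcription of many of these genes within minutes of protein damage by binding heat shock elements. The unfolded protein response does so for chaperones of the endoplasmic reticulum (ER) through ER stress elements. Chaperones are abundant in neurons and endocrine cells, where they serve protein secretion and synaptic vesicle cycling.

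Promoters are shown for 5 genes because their windows hold, or do not hold, exact matches to elements through which these inducible pathways act. RefSeq promoters (build GRCm38.p6, 250 bases before to 50 after a transcript start) were found for 64 of the 80 genes, in 82 windows. Both strands were searched for the 2-unit heat shock element GAANNTTC, for its 3-unit form (GAANNTTC followed directly by NNGAA), and for the ER stress element (CCAAT, 9 bases of any kind, then CCACG). Capitals mark the 3-unit form in Hsph1 and Hspe1, the 2-unit form in Hspa1a and the ER stress element in Hspa5. The 2-unit form lies within the 3-unit one. Hspe1 holds 2 overlapping matches.
Hspa1a (chr17:34972107-34972406, minus strand): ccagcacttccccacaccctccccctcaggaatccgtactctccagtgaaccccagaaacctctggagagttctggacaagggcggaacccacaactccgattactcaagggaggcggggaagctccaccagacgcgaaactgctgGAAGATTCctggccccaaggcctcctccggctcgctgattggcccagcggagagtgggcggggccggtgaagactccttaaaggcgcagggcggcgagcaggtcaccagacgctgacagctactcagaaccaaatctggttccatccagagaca
Hsph1 (chr5:149636287-149636586, minus strand): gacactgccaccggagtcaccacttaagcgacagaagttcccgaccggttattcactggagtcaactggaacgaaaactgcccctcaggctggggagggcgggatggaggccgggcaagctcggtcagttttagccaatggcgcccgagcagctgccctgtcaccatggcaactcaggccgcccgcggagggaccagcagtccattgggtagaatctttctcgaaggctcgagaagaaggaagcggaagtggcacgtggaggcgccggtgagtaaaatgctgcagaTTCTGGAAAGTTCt
Hspe1 (chr1:55087898-55088197, plus strand): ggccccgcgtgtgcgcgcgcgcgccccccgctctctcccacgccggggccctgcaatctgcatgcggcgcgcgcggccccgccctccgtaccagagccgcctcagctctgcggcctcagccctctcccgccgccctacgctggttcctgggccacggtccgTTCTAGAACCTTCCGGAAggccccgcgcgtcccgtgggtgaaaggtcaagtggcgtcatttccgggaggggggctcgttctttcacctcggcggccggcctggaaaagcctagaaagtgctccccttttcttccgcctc
Hspa5 (chr2:34771840-34772139, plus strand): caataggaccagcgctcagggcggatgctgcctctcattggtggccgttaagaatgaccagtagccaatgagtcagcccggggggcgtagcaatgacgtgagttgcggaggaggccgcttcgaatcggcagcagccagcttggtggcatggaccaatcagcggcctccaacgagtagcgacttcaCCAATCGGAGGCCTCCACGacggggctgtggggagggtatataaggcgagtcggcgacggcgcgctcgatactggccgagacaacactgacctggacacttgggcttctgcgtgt
Dnajb1 (chr8:83607925-83608224, plus strand): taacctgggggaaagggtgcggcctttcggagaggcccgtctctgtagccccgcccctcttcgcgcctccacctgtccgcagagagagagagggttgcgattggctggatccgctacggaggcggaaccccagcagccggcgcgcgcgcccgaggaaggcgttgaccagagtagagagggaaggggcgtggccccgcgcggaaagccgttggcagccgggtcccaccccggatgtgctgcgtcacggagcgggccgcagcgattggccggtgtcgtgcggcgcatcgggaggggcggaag
The window of Dnajb1, the gene with the largest positive difference below, held no exact match to these elements. This was so at the start shown and at its other RefSeq start. Inexact matches and bases outside the windows were not searched. The 3-unit element was found in 7.32% of the chaperone windows and in 0.603% of all 32851 windows, and the 2-unit form in 18.3% and 7.86%. The 2 units turned about, TTCNNGAA, which also lie within the 3-unit form, were found in 11.0% and 8.52%. The ER stress element was found in 3.66% and 0.119%, and the cyclic AMP response element TGACGTCA in 1.22% and 1.79%. The chaperone windows with the 3-unit element were 6 windows of 4 genes, and they are not independent. For Hsph1 and Dnajb6 the same match was found from more than 1 start, and Hspd1 and Hspe1 share the same stretch. These are matches of letters, not measured binding.

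Of the 80 genes, 67 were well above background on both arrays, 4 on the GnRH array only and 9 on neither. Of all 35019 gene names on the array, 21219 were so on both arrays. These names include chromosome intervals and others without a RefSeq gene, and every share of all genes given here counts them as genes. The share of all genes called on 1 array only was not counted. Signals are the scanner's processed signals, with the GnRH array multiplied by 1.07 so that both arrays have the same 75th percentile. Differences are GnRH minus vehicle on the log2 scale, with the scanner software's error, which for bright probes mostly reflects a preset error of 0.1 of the signal. Hspa8, the constitutive cytosolic HSP70, had a vehicle signal of 229912 and a GnRH signal of 242817. Hspa5, the ER HSP70 known as BiP, had 66039 and 70611. Dnajb1, the J-domain partner of inducible HSP70, had 16695 and 20885. These 3 defining genes of the group were bright on both arrays. Fos was 63.3-fold higher in the GnRH array. The GnRH receptor gene Gnrhr was well above background on both arrays. Gnrh1 was so on neither, with vehicle signals of 7.94 and 6.23 on its probes. Cga, Nr5a1 and Pitx1, genes of pituitary gonadotropes, were well above background on both arrays. Their vehicle signals were 80508 (Cga, brighter probe), 33412 and 48204. The lack of Gnrh1 above background and these bright gonadotrope genes go against the hypothalamic neurons of the label. The identity of the cells was not tested, and they are called only by their label. Of the non-control spots, the vehicle array had 55.2% well above background and the GnRH array 56.9%, and saturation was marked for 0 spots.

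**Figure D1:**
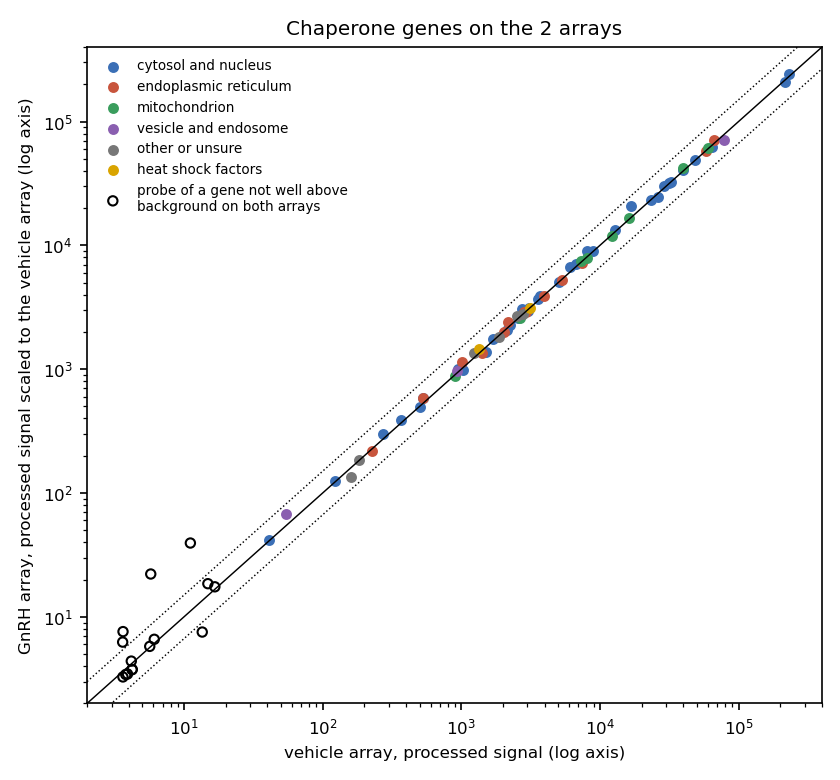
Processed signal of each chaperone gene on the vehicle array (x axis) against the GnRH array scaled to it (y axis), both on log axes; filled points are the 67 genes measured on both arrays, coloured by compartment, and open points are probes of the other 13 genes. The solid line marks equal signal and the dotted lines a 1.5-fold difference; all filled points lie between the dotted lines.

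No chaperone gene measured on both arrays differed 1.5-fold. Of the 67, 0 were at least 1.5-fold higher in the GnRH array, against 1.19% of the 21219 genes measured, and 0 were at least 1.5-fold lower, against 0.881%. At a lower limit of 0.32 on the log2 scale, 1 was higher (4.49% of all genes) and 0 were lower (3.9% of all genes). The 1 gene past that lower limit was Dnajb1, which lay at the limit itself. The differences ran from -0.24 for Dnajc28 to 0.32 for Dnajb1, with a median of 0.02, beside -0.01 for all genes. Their standard deviation across genes was 0.09, and 88.1% lay within 1.1-fold, beside 72.3% of all genes and 82.1% of the genes in the upper 75% by signal. Differences above 0 were seen for 42 of the 67 (62.7%), beside 47.5% of all genes. That count depended on the scaling, with 26 of 67 above 0 when each array was scaled to its median, beside 36.9% of all genes. Dnajb1, Dnajc6 and Dnajc28 differed by more than 1 scanner error, and 0 chaperone genes by more than 2. The share of all genes past these errors was not counted, so these counts are not read as low or high.

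**Figure D2:**
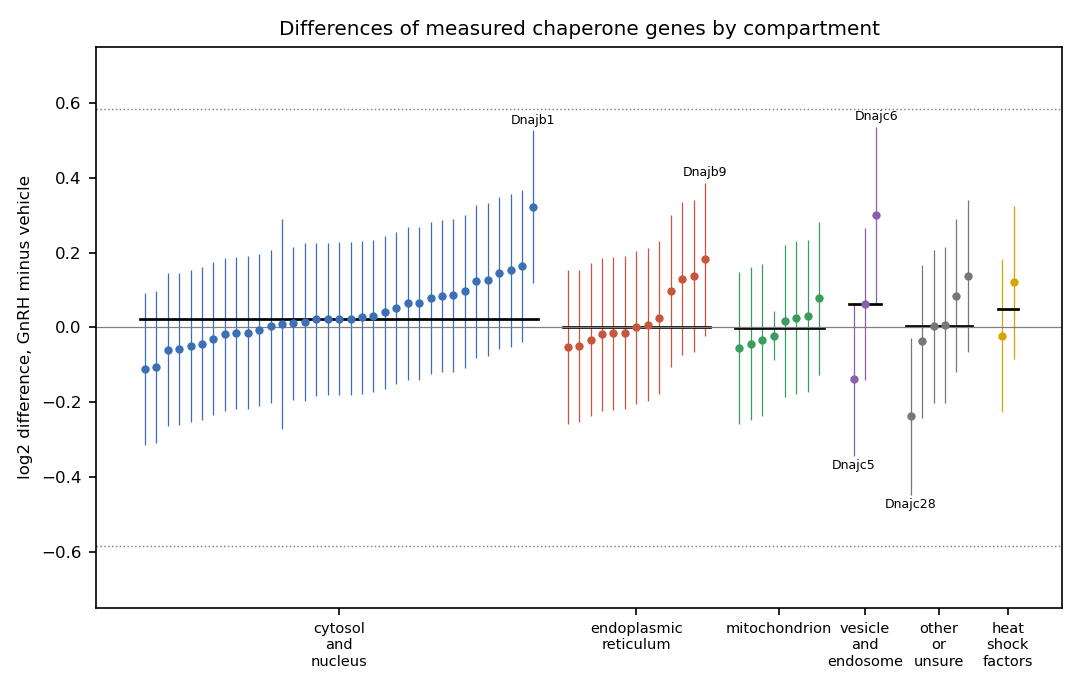
Log2 difference, GnRH minus vehicle (y axis), of the 67 measured chaperone genes, ordered by size within each compartment (x axis); bars are the scanner error and black lines the medians. The dotted lines mark 1.5-fold. All points lie inside the dotted lines, Dnajb1 highest and Dnajc28 lowest.

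Among the HSP70 genes, 7 of 10 were measured. On their brightest probes all 7 lay slightly above 0, from 0.03 to 0.15, beside 47.5% of all genes above 0. The lowest of the 7, Hspa13, gave -0.11 on its dimmer probe. Hspa8 differed by 0.08 ± 0.20 on its brightest probe, and its other probes, with vehicle signals of 99988 and 31391, differed by 0.07 and 0.01. Hspa2, an HSP70 best known from the testis, had signals of 532 and 589 (0.15 ± 0.20). Hspa14, a ribosome-linked HSP70, had 29041 and 30100 (0.05 ± 0.20). Each of these differences was smaller than its error. With the median scaling, 6 of the 7 were above 0, as with the mean over probes, beside 36.9% and 47.4% of all genes. Hspa12a (0.13 ± 0.21) lay in 1 of 3 small areas of the array where unrelated neighbouring spots differed together, and its own neighbours had a median difference of -0.13.

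The stress-inducible HSP70 gene Hspa1a was called above background on neither array; its vehicle signal was 5.66 and its GnRH signal 5.77, and no fold is given. It is among the genes that heat and proteotoxic stress raise most in cultured cells, and its promoter window above holds a 2-unit heat shock element. Mouse Hspa1a and Hspa1b are near-identical copies, so a probe for either can read both. Hspa1l, a neighbouring gene expressed mostly in the testis, was well above background on the GnRH array only, at 14.9 and 18.5, a bound of at least 1.14-fold. Such bounds use, for the dim array, the gene's own signal or the lowest signal called above background there, whichever is higher. They leave out the scanner error, and an uncalled signal can exceed that lowest one, so they are not guaranteed minima. Hspa12b, a distant HSP70, was also seen on the GnRH array only, at 5.76 and 22.2 on its brighter probe, at least 1.36-fold higher.

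The HSP110 genes, exchange factors for HSP70, lay within 1.1-fold on their brightest probes. Hsph1, which is itself heat-inducible, had signals of 12955 and 13195 (0.03 ± 0.20), and -0.0012 on its other probe. Hspa4 had 32596 and 32434 on its brightest probe (-0.01 ± 0.20), and its dimmer probes gave 0.09 and -0.18. Hspa4l differed by -0.01. In the BAG group all 6 genes were measured, from -0.11 to 0.10. Bag3, the stress-inducible member that works with Hspb8 in clearing damaged proteins, had 3606 and 3707 (0.04 ± 0.20). Bag6, which guards tail-anchored membrane proteins, was the lowest of the group, at 26354 and 24491 (-0.11 ± 0.20).

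The HSP90 genes were bright and nearly level on both arrays. Hsp90aa1, the inducible cytosolic form, had 39935 and 40584 (0.02 ± 0.20). Hsp90ab1, the constitutive cytosolic form, had 216297 and 207858 (-0.06 ± 0.20). Hsp90b1, the ER form known as GRP94, had 57918 and 58197 (0.01 ± 0.20). The differences of the inducible and constitutive cytosolic forms were each smaller than their scanner error.

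Of the small heat shock protein genes, 5 of 8 were measured. Hspb8 had 8085 and 8984 (0.15 ± 0.20) and Hspb6, an HSP20, had 1497 and 1385 (-0.11 ± 0.20), the highest and the lowest of them. Hspb1, which encodes HSP27 and is strongly heat-inducible in many cells, was not well above background in the vehicle array (6.10) or the GnRH array (6.59). Hspb3 and Hspb7, which are muscle-enriched, were not either. Hspb7 was read on 10 spots per array, whose signals ran from 3.34 to 6.71 with vehicle and from 2.97 to 9.28 with GnRH. The ranges overlapped. Hspb11, which despite its name is a component of intraflagellar transport, differed by 0.08 ± 0.20.

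The J-domain genes held both extremes. Dnajb1 differed by 0.32 ± 0.20 on its only probe (chromosome 8, 86135660 to 86135719, build mm9). Among all genes, 4.45% had a difference as high or higher. Its spot lay outside the 3 areas, with a median difference of -0.09 among its neighbours. Over 12 alternative settings Dnajb1 stayed between 0.30 and 0.34. It was the highest chaperone gene in each of them that kept the well-above-background call on both arrays. Dnajb1 ranked 3 with a looser background call and 4 with no filter on dim probes, where the dim Hspa12b was highest. Scaling to the median, quantile normalization and the authors' value table put Dnajb1 just under the lower limit. The other cytosolic partners of HSP70 were nearer 0 on their brightest probes. Dnaja1 had 48143 and 49153 (0.03 ± 0.20), and its dim second probe, at 56.9 and 66.2, gave 0.22 ± 0.24. Dnaja2 had 6127 and 6673 (0.12 ± 0.20), and Dnajb4, also heat-inducible, 370 and 387 (0.06 ± 0.21). Dnaja4 differed by -0.06 ± 0.20 on its brightest probe and by 0.20 ± 0.26 on a dim one, at 44.2 and 50.9. With the mean over probes Dnaja1 was at 0.12 and Dnaja4 turned to 0.07.

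Dnajc6, which encodes auxilin, the neuronal factor that strips clathrin from vesicles, was next below Dnajb1 (0.30 ± 0.24). It was dim, with a vehicle signal of 54.6 and a GnRH signal of 67.2, and with no background correction it differed by 0.19. Dnajc5, which encodes the cysteine string protein of synaptic vesicles, had 78241 and 71050 on its brightest probe (-0.14 ± 0.20) and 0.05 to -0.04 on its other measured probes. Dnajc13, an endosomal J-domain protein, differed by 0.06 ± 0.20. Dnajc28, whose role is little known, was the lowest chaperone gene at 160 and 136 (-0.24 ± 0.21), and -0.14 with no background correction. Among the remaining DNAJC genes, Dnajc24, which takes part in diphthamide synthesis, had 2756 and 3087 (0.16 ± 0.20), but its other probe gave -0.01. Dnajc25 differed by 0.14 ± 0.20, Dnajc27 by 0.01, Dnajc4 by 0.00 and Dnajc22 by -0.04. Of the DNAJB genes, Dnajb3, Dnajb7, Dnajb8 and Dnajb13, known mainly from the testis, were not well above background on either array.

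By compartment, assigned from general knowledge, the medians differed little. The 35 measured cytosolic and nuclear genes had a median of 0.02, from -0.11 to 0.32. The 13 ER genes had a median of 0.00, from -0.05 for Dnajc14 to 0.18 for Dnajb9. The 8 mitochondrial genes had a median of -0.0024, from -0.05 for Dnajc30 to 0.08 for Hspe1. The ranges overlapped. Above 0 lay 4 of 8 mitochondrial, 7 of 13 ER and 24 of 35 cytosolic and nuclear genes, beside 47.5% of all genes. With the median scaling the cytosolic and nuclear median was -0.0044, beside -0.03 for all genes.

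In the ER, the highest differences were those of J-domain genes. Dnajb9, a target of the unfolded protein response, had 1008 and 1143 (0.18 ± 0.20), and its other probe gave 0.09. Dnajc18 had 2175 and 2391 (0.14 ± 0.20). Dnajc3, which encodes p58IPK, had 532 and 583 (0.13 ± 0.20). Hspa5 differed by 0.10 ± 0.20. Dnajb11, an abundant luminal partner of BiP, differed by -0.03, Dnajc16 by -0.05 and Dnajc14 by -0.05 (0.02 on its dim other probe). The ER stress element was found in Hspa5, Hsp90b1 and Dnajc3, whose differences were 0.10, 0.01 and 0.13.

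In mitochondria, Hspa9, known as mortalin, had 16208 and 16546 (0.03 ± 0.20). Hspd1 and Hspe1, which encode HSP60 and HSP10 and are read head to head from a shared promoter region, had 60066 and 61164 (0.03 ± 0.20) and 39590 and 41782 (0.08 ± 0.20). In the RefSeq table, 1 of the Hspd1 starts lies 216 bases from the Hspe1 start without overlap, and the other lies 95 bases past it. The other probes of Hspe1 gave 0.07 and 0.15. Dnajc15 differed by -0.04, Dnajc19 by -0.03 (0.16 on its other probe) and Dnajc30 by -0.05. The 3-unit heat shock element was found in Hspd1 and Hspe1, which share the same stretch, and in Hsph1 and Dnajb6. The differences of these genes ran from 0.03 to 0.08. For the 10 measured genes with the 2-unit form GAANNTTC the median was 0.03, from -0.11 to 0.15.

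The heat shock factor genes were measured for Hsf1 and Hsf2 of 5. Hsf1, the main regulator of the heat shock response, had 3155 and 3107 (-0.02 ± 0.20). Hsf2, which binds the same elements, had 1333 and 1449 (0.12 ± 0.20). Hsf3 was called on neither array. Hsf4, a lens factor, was called on the GnRH array only, at 16.7 and 17.5. Its uncalled vehicle signal was above the lowest called one. The 1.05-fold bound is therefore the plain ratio of its signals (log2 difference 0.07 ± 0.47). Hsf5, a testis-expressed member, was also seen on the GnRH array only, at 11.1 and 39.5, at least 2.42-fold higher. It rests on 1 spot outside the 3 areas, and with normexp or no background correction its bound on the log2 scale moved from 1.27 to 0.34 and 0.35.

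Probes of 1 gene gave a measure of spread within genes, whose source was not tested. For 25 chaperone genes over 1 probe was measured, with a pooled standard deviation of 0.09 between probes of a gene. The spread between genes was also 0.09, but the 2 values are not alike. The spread between genes used only the brightest probe of each gene, itself dim for Dnajc6 and Hspb2 (vehicle signals of 54.6 and 41.3). The pooled value used every measured probe of the 25 genes, among them dim ones with a vehicle signal under 100. The probes of 15 genes fell on both sides of 0, and for 4 genes they spanned over 0.2: Dnajb6, Hspa4, Dnaja4 and Dnajc21. In the last 2 the outlying probe had a vehicle signal under 100. The Dnajb6 probes differed by position. The 2 probes near 30112855 to 30112920 on chromosome 5 (mm9) gave 0.08 and 0.10, while those at 30080099 to 30080158 and at 30077544 to 30078952 gave -0.05 and -0.20, each ± 0.20. Exons are not assigned, for want of an annotation of that build. Dnajc11, a mitochondrial J-domain gene, was read on 10 spots per array, from 840.0 to 932 with vehicle (median 894) and from 842 to 910 with GnRH (median 886). The ranges overlapped, and the mean difference was -0.02 with a standard deviation of 0.05 between spots, while its other probes gave -0.05 and 0.13. A second probe of Dnajb5 had 15.5 and 103, at least 6.34-fold higher, but lay in 1 of the 3 areas, and its measured probe outside them differed by 0.02.

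**Figure D3:**
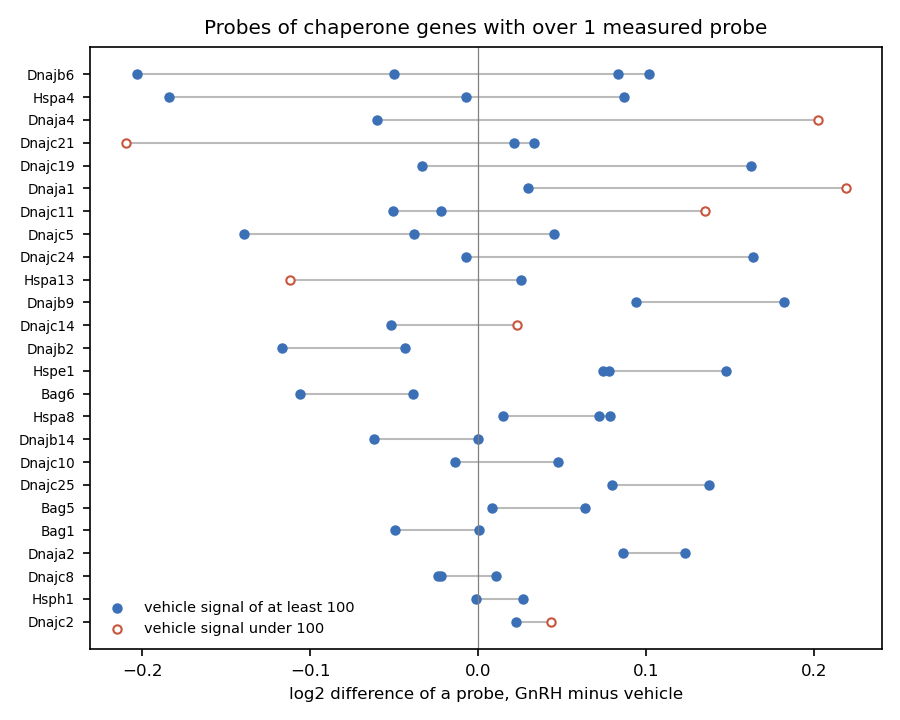
Log2 difference, GnRH minus vehicle (x axis), of each measured probe of the 25 chaperone genes with over 1 measured probe (y axis, ordered by the span); filled points have a vehicle signal of at least 100 and open points a signal under 100. Spans reach 0.31 for Dnajb6, and probes of 15 genes lie on both sides of 0.

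Other genes of the folding machinery, from lists drawn up by role, were set beside the chaperones. All 47 were measured, with a median of -0.01. At 1.5-fold, 0 were higher (1.19% of all genes) and 0 were lower (0.881% of all genes). At the lower limit, 1 was higher (4.49% of all genes) and 1 was lower (3.9% of all genes). The 14 cytosolic cochaperones ran from -0.09 (Fkbp5, a glucocorticoid-induced immunophilin) to 0.03 (Chordc1). Of the 14, 4 lay above 0 (28.6%), beside 47.5% of all genes. St13, an HSP70-interacting protein, was at -0.07. The 8 subunits of the cytosolic chaperonin, which folds actin and tubulin, ran from -0.07 for Cct6a to 0.07 for Tcp1. The 9 mitochondrial genes ran from -0.08 for the disaggregase gene Clpb to 0.13 for Grpel2, an exchange factor for mortalin. In the ER list, Herpud1, which serves ER-associated degradation, had 6905 and 9600 (0.48 ± 0.20), the highest of the 47. Pdia4, a disulfide isomerase, had 1725 and 1887 (0.13 ± 0.20). Serpinh1, the collagen chaperone, was the lowest at 38.5 and 26.1 (-0.56 ± 0.30), which became -0.10 with normexp and -0.10 with no background correction. The ER exchange factor gene Hyou1 differed by -0.05, and the lectin chaperone genes Calr and Canx by -0.06 and -0.02.

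**Figure D4:**
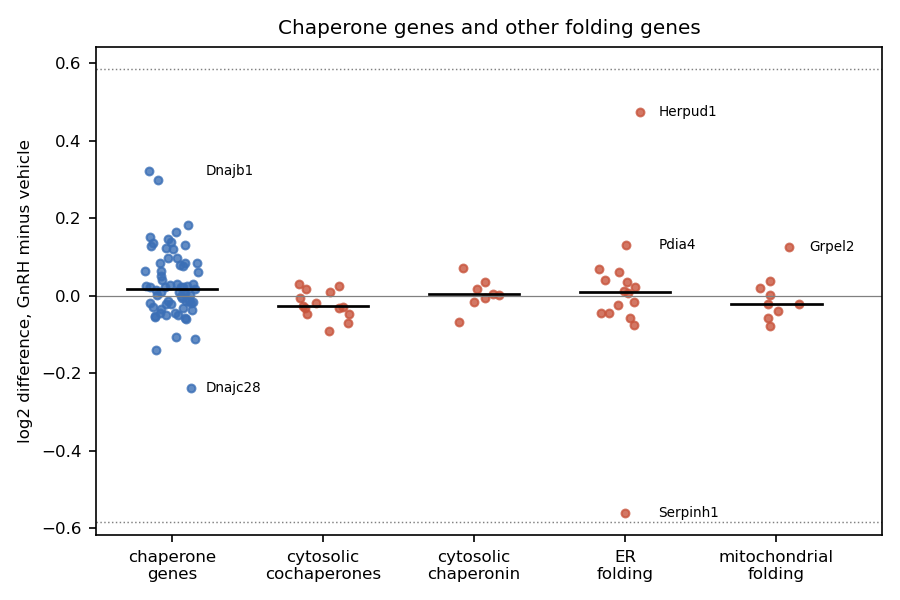
Log2 difference, GnRH minus vehicle (y axis), of the 67 measured chaperone genes (blue) and of 47 other folding genes in 4 lists (red); points are genes, spread sideways for legibility, black lines are medians and dotted lines mark 1.5-fold. Herpud1 (0.48) and Serpinh1 (-0.56) lie farthest from 0.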

How the data were processed

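Linear intensity values were read from the deposited scanner files, where background is already subtracted. Per the file headers the software was Feature Extraction 10.7.1.1; version 9.5.1.1 is the one in the submitters' processing notes. The authors' deposited value table also holds linear intensity values, whose scaling is not given in the sources used here; it served as an alternative. Spot marks of 0 or 1 were taken as deposited.

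Log2 processed signals of a probe's kept spots were averaged and scaled by each array's 75th percentile (578 on the vehicle array, 541 on the GnRH array). The background call of a probe required the scanner's mark on 50% or more of kept spots, and each gene was represented by the brightest probe called on both arrays. Members were named by the files, and other genes through RefSeq accessions (GRCm38.p6, names only; 27235 probes). Probes without a RefSeq match kept the name in the files, which can be a chromosome interval. Python 3.11.15 and limma 3.58.1 (normexp only) were used. No test was made, and 1.5-fold was the main counting limit. Areas are connected groups of at least 4 spots whose neighbours within 2 rows and columns had a median log2 difference of 0.3 or more in size, widened by 2 spots; 3 areas held 582 non-control spots, 2 of them of chaperone genes. The steps were tested on simulated data. The members, lists, thresholds and alternatives were chosen with earlier results of these data known. Named genes were those at least 1.5-fold apart, the 3 highest and 3 lowest of each compartment, preset well-known members, those seen on 1 array only, and the 3 largest of each list; other genes were chosen after their values were seen.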

Additional observations from a re-analysis of the deposited data

How the results depend on the processing

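Settings varied were the array scaling (median, quantile or lowess trend), background handling (normexp or none), the authors' value table, dim-probe filters and calls, averaging over probes, outlier spots and the 3 areas. The count of chaperone genes at least 1.5-fold higher, 0 of 67, became 3 of 80 with no filter on dim probes (7.56% of all genes), 2 of 75 with the looser background call (5.46%) and 1 at the lower limit of 0.32 on the log2 scale. The count at least 1.5-fold lower, 0 of 67, became 1 of 80 with no filter (4.76% of all genes) and 1 of 75 with the looser background call (3.7%). With no filter, probes lacking any background call on 1 array or both are admitted, and their differences are not measured values. The looser call still required the scanner's mark for a positive signal significantly over background on both arrays. It admits dim probes that lack the well-above-background call used elsewhere. The median of the chaperone genes, 0.02, ran from -0.01 (median scaling, which moved the median of all genes to -0.03) to 0.03, and was below 0 with that scaling alone. Medians so near 0 turned sign in smaller groups: the cytosolic and nuclear median of 0.02 became -0.0044 and the ER median of 0.00 became -0.03 with the median scaling, and the mitochondrial median of -0.0024 became 0.02 with the mean over probes. The median of the other folding genes ran from -0.03 with the median scaling to 0.0064 with normexp. Of 598 values of 50 named genes, 2 moved by more than the scanner error, both of Serpinh1. The bound of Hspa12b moved from 0.44 to 0.18 with normexp and to 0.16 without correction. Dim genes are limited by their signal over background. No paired analysis was possible because each group has 1 array.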
